A study of Mus musculus with 24 samples.

Results

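The 9 genes Htr1a, Htr1b, Htr1f, Htr2a, Htr2c, Htr3a, Htr4, Htr5a and Htr7 encode serotonin receptors of the frontal cortex. They were taken by name from a deposited expression table of 15232 genes, in which each had 1 row, and their levels were compared over 3 arms of mice. Poly(A) RNA of the whole anterior cingulate cortex was sequenced from 24 mice, with 1 library per animal, in a study of how thrombospondins 1 and 2 bear on the effort mice spend on a goal-directed action. Each arm held 4 females and 4 males. The first arm was wild type (WT) and had no treatment, the next carried the label Thbs1/2 KO (knockout of both thrombospondin genes) and had no treatment, and the last carried the same KO label and had been trained in an operant box, with food deprivation from the start of training. Trained WT animals were not analysed here. Strain and age of the animals, and how the knockout alleles were made, are not given in the sources used here.

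Levels are FPKM, fragments per kilobase of gene scaled to library size, so that genes of different length can be set side by side. Recovered reads per library ran from 12898226 to 19991770 in untrained WT, from 12343773 to 27233267 in untrained KO and from 16796512 to 20414047 in trained KO. The genes named in the genotype went against their labels: Thbs1 lay between 0.254 and 0.716 FPKM in libraries labelled WT and between 2.77 and 5.91 FPKM in libraries labelled KO. Thbs2 likewise ran from 1.52 to 2.31 FPKM under the WT label and from 2.82 to 3.95 FPKM under the KO label. Every direction below therefore rests on libraries labelled WT or KO. The animal numbers in the labels overlapped with training, because 8 of 8 trained animals but only 3 of 16 untrained animals were numbered over 1000. Those untrained animals were the male labelled WT replicate 1 and the males labelled KO replicates 1 and 2. For trained animals, a fit with a term for animal number rests on these few untrained ones, so its values are uncertain. Slc17a7, a marker of cortical excitatory neurons, lay between 442 and 616 FPKM in 23 libraries and at 191 FPKM in the untrained male labelled KO, replicate 3. That library also held 92.8 FPKM of septal markers, against 6.66 to 11.4 FPKM in the other 23, and 260 FPKM of striatal markers, against 17.8 to 120 FPKM. The trained female labelled KO, replicate 2, stood apart in the hippocampal genes Prox1 at 9.23 FPKM, against 1.48 to 3.62 FPKM elsewhere, and Lct at 8.20 FPKM, against at most 0.268 FPKM. C1ql2, at 7.39 FPKM, was also highest there, while the listed hippocampal genes Wfs1 and Pou3f1 lay within the range of other libraries. The sum of this list was 61.2 FPKM there and 88.2 FPKM in the untrained male labelled KO replicate 3, where Wfs1 made up 82.5 FPKM. In bulk tissue, fewer cells of a type and less RNA per cell cannot be told apart.

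Serotonin reaches the cingulate cortex through axons of the raphe nuclei, whose cell bodies lie in the brainstem, and acts there on several receptor classes. The Htr1 and Htr5 families couple to Gi and Go proteins, which lower cyclic AMP and open potassium channels. The Htr2 family couples to Gq and phospholipase C, the Htr4, Htr6 and Htr7 receptors couple to Gs and cyclic AMP, and Htr3 subunits form cation channels. In cortex, Htr1a and Htr2a are known above all from pyramidal neurons, Htr3a from a class of interneurons, and Htr1b as a receptor on axon terminals. Tph2, the enzyme that makes serotonin in raphe neurons, was at 0.158 to 0.630 FPKM over the 24 libraries, and Fev and Slc6a4, further markers of raphe neurons, were not analysed here.

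None of the receptor genes lies on a chromosome of the targeted genes, which are 2 for Thbs1 and 17 for Thbs2. In RefSeq GRCm38.p6, the assembly also called mm10, Htr1a lies at chr13:105443693-105448133, Htr1b at chr9:81628291-81633832, Htr1f at chr16:64924729-65105784, Htr2a at chr14:74640874-74706859 and Htr2c at chrX:146962464-147197277. Htr3a lies at chr9:48899213-48911152, Htr5a at chr5:27841716-27855086 and Htr7 at chr19:35958415-36058133. All 9 are annotated as protein-coding. RefSeq promoter windows, from 250 bases before to 50 bases after a start, were matched for 7 of the 9 genes (Htr1a, Htr1b, Htr1f, Htr2a, Htr2c, Htr5a, Htr7). The bases before the gene start are printed here for Htr2a and Htr2c, the Gq-coupled receptors, whose levels ran in opposite directions across libraries. Capitals mark the letters GGGCGG or their reverse complement, a motif of the factor SP1.

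Htr2a, chr14:74640624-74640873, plus strand: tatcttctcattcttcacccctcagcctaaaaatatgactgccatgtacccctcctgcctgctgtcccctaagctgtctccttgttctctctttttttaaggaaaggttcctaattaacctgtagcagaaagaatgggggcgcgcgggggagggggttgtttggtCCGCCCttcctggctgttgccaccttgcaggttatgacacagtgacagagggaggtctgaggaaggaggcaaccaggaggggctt
Htr2c, chrX:146962263-146962463, plus strand: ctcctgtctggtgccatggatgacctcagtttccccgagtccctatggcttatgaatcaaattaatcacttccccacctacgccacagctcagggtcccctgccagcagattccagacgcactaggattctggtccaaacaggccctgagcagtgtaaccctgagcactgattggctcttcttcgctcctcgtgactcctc

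The SP1 letters were found on either strand in 35.7% of 32851 promoter windows, and in those of Htr2a (position -85 from the start), Htr1a (position -123) and Htr1f (position 32). The letters GCGNGGGCG, a motif of the EGR factors, were found in 5.55% of windows and only in that of Htr7 among the 7. The start used for that window lies 773 bases inside the annotated gene, and those of Htr5a and Htr2c lie 231 and 49 bases inside theirs. The cyclic AMP response element TGACGTCA (1.79% of windows) and the letters TATAAA (13.6%) were found in none of the 7. A match is a description of letters, and no binding was measured.

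**Figure D1:**
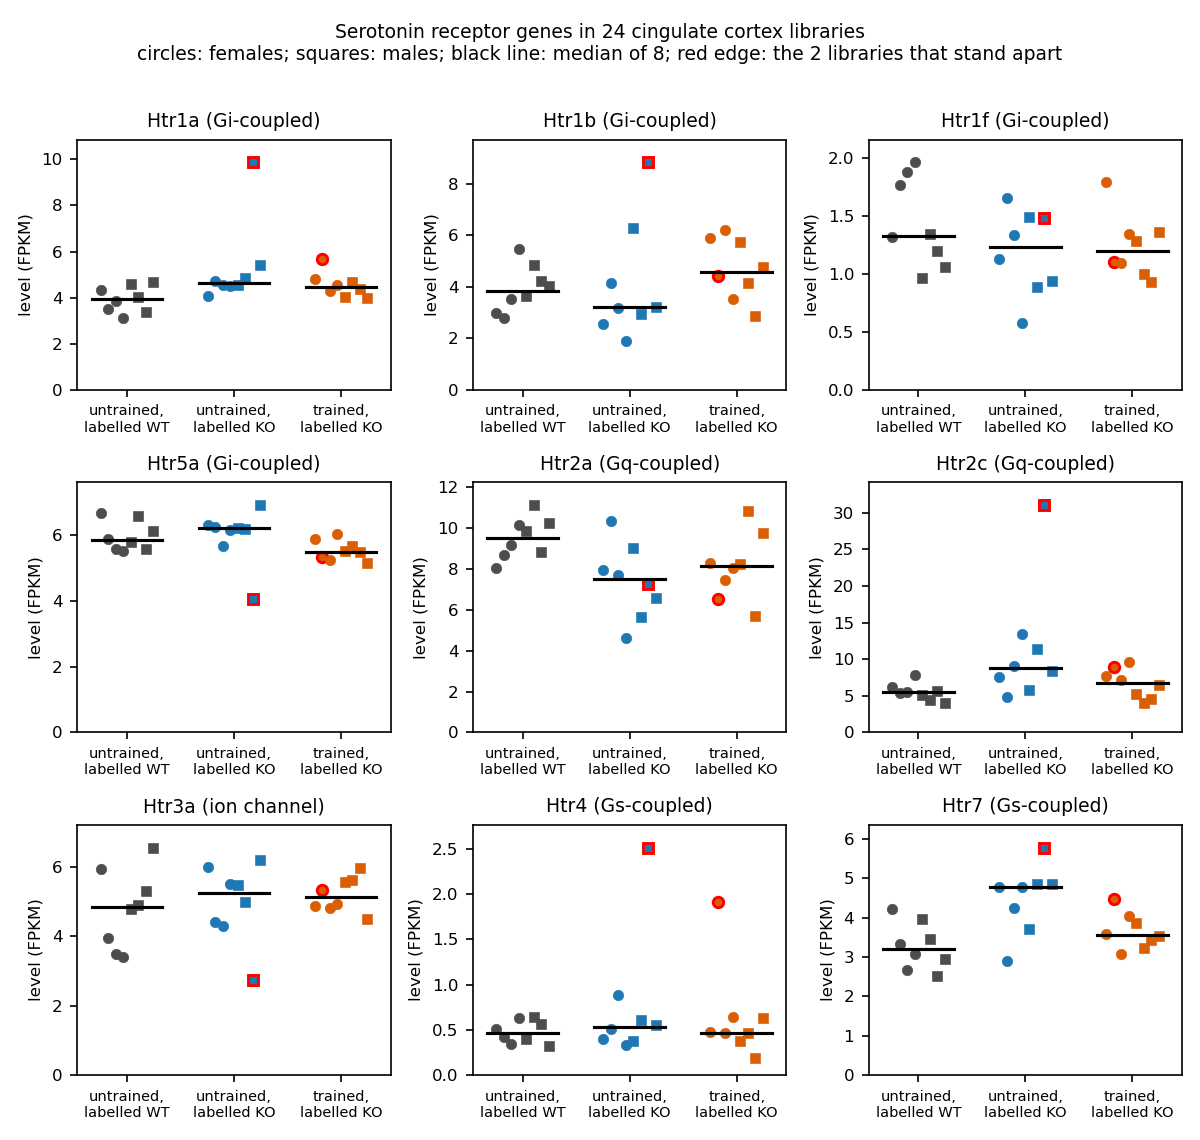
Level (FPKM, linear axis from 0) of the 9 receptor genes in each of 24 libraries by arm, with females as circles, males as squares, the median of each arm as a black line and the 2 libraries that stand apart edged in red. The ranges of the arms overlap in every panel, and the untrained male labelled KO replicate 3 is highest for Htr1a at 9.86 FPKM and Htr2c at 31.1 FPKM.

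All 9 receptors were low to moderate in the tissue. Over 24 libraries the mean level fell in the order Htr2a (8.33 FPKM ± 1.71, SD, n = 24), Htr2c (7.91 ± 5.48), Htr5a (5.82 ± 0.592), Htr3a (4.98 ± 0.938), Htr1a (4.60 ± 1.26), Htr1b (4.25 ± 1.55), Htr7 (3.81 ± 0.817), Htr1f (1.29 ± 0.346) and Htr4 (0.631 ± 0.516). Much of this order was not held within libraries. Htr2a was above Htr2c in 17 of 24 libraries, with a mean log2 ratio of 0.22 ± 0.88 (SD), and Htr2c above Htr5a in 13 of 24. Htr1a was above Htr1b in 16 and Htr1b above Htr7 in 13 of 24. Htr3a was above Htr1a in 19 of 24, by 0.13 ± 0.47. None of these steps exceeded its spread. The lower steps did: Htr7 exceeded Htr1f in 24 of 24 libraries by 1.59 ± 0.60 on the log2 scale, and Htr1f exceeded Htr4 in 22 of 24 by 1.23 ± 0.81. Htr5a stood above its neighbour Htr3a in 21 of 24 libraries, by 0.25 ± 0.23. The reads behind a value differed among genes, from a median of 38.5 per library for Htr4 and 51.5 for Htr1f to 548 for Htr5a.

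The 4 comparisons were untrained KO against untrained WT, trained KO against untrained KO, trained KO against untrained WT, and males against females. The first 3 share arms, so their values stand side by side and are not independent. limma on log2(FPKM + 1) was fitted to all 12572 genes with a mean of at least 1 FPKM, which 8 of the 9 receptors passed, and p-values were adjusted over all of them. Htr4, at a mean of 0.631 FPKM, did not pass and was compared by an exact permutation test. None of the 8 receptors passed an adjusted p of 0.05 by limma in any of the 4 comparisons, whereas 1.42% of all genes passed between untrained KO and WT, 5.67% between trained and untrained KO, 24.5% between trained KO and untrained WT, and 28.6% between the sexes. At an unadjusted p under 0.05 the counts were 4, 1, 3 and 0 of 8, beside 12.7%, 23.8%, 37.5% and 40.3% of all genes, and limma-voom on recovered reads also called 0 of 8 in each. No receptor separated the groups without overlap in any comparison, as 0.501%, 0.962%, 3.11% and 0.111% of all genes did. The median size of the difference, regardless of sign, was 0.24 on the log2 scale over the 8 receptors between untrained KO and WT, beside 0.06 over all genes tested. An unsigned median can grow with the spread of a gene, and the part of spread in this difference was not tested. For 7 of the 8 receptors, all but Htr5a, the residual SD after arm and sex was 0.20 to 0.52. Its median was 0.13 over all genes tested. With sign, the receptor medians were 0.016, -0.020, 0.12 and 0.046 in the 4 comparisons in turn. The unsigned median was 0.14 beside 0.08 for training, 0.15 beside 0.10 for trained KO against untrained WT, and 0.11 beside 0.09 between the sexes.

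**Figure D2:**
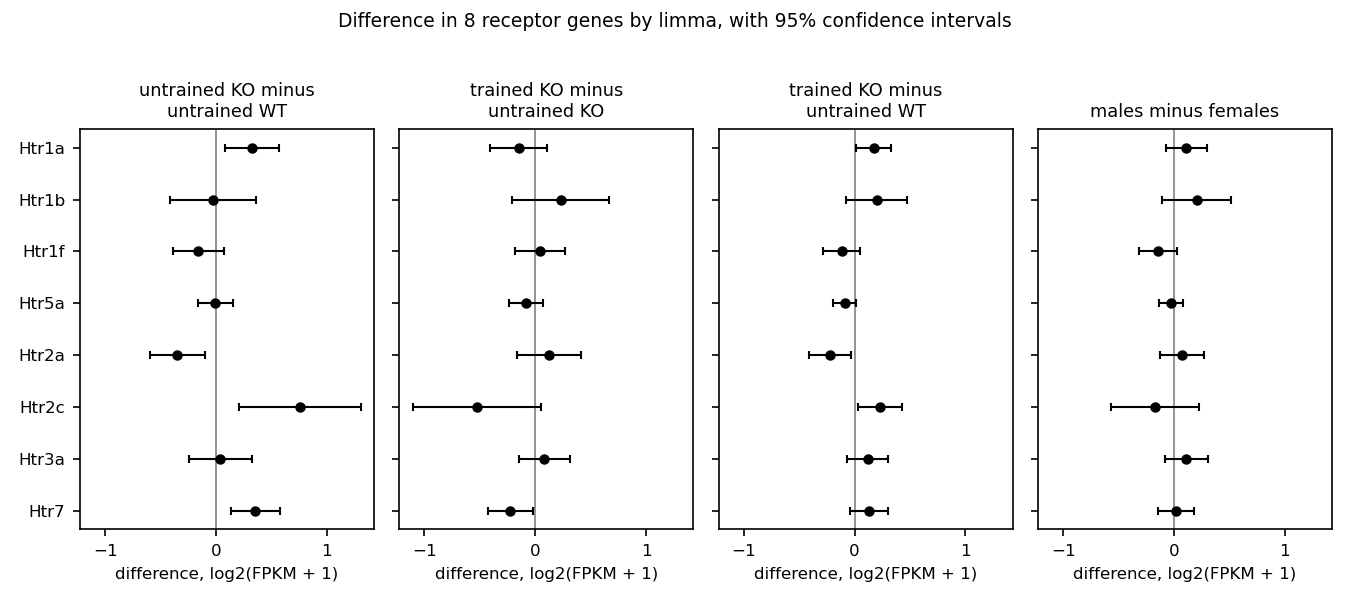
Difference in log2(FPKM + 1) for the 8 receptor genes tested by limma, with 95% confidence intervals, in the 4 comparisons (8 against 8 libraries in the first 3 panels, 12 against 12 in the last). Htr5a has the narrowest interval in each panel, and the widest is that of Htr2c in 3 panels (0.21 to 1.30 for untrained KO minus untrained WT) and that of Htr1b for trained KO minus untrained WT (-0.08 to 0.47).

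Among the Gi-coupled receptors, Htr1a encodes the 5-HT1A receptor, which hyperpolarises pyramidal neurons and also serves as the autoreceptor of raphe neurons. Htr1a ran from 3.10 to 4.67 FPKM (median 3.94) in untrained WT, from 4.06 to 9.86 FPKM (median 4.65) in untrained KO and from 4.00 to 5.67 FPKM (median 4.45) in trained KO. The ranges overlapped, but 8 of 8 untrained KO and 8 of 8 trained KO libraries lay above the WT mean of 3.93 FPKM. The difference between untrained KO and WT was 0.32 on the log2 scale (95% interval 0.08 to 0.57, adjusted p = 0.230 by limma). Without the untrained male labelled KO replicate 3, at 9.86 FPKM, it was 0.21 (adjusted p = 0.0978), and among animals numbered under 1000 it was 0.42 (adjusted p = 0.175). Trained KO minus untrained WT gave 0.17 (0.01 to 0.33, adjusted p = 0.104), and trained minus untrained KO gave -0.15 (-0.41 to 0.10, adjusted p = 0.469). With a term for animal number the trained KO value against WT was -0.03, so its sign turned. That fit rests on the untrained male labelled WT replicate 1 at 4.58 FPKM, the only WT animal numbered over 1000.

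Htr1b encodes the 5-HT1B receptor, which reduces transmitter release at axon terminals. Its levels ran from 2.78 to 5.47 FPKM (median 3.83) in untrained WT, from 1.90 to 8.83 FPKM (median 3.21) in untrained KO and from 2.86 to 6.22 FPKM (median 4.58) in trained KO. The untrained KO arm held both the lowest and the highest library of the series. Its residual SD after arm and sex was 0.40 on the log2 scale, wider than that of 98.1% of tested genes. Counts were low, with a median of 74 reads per library. The difference was -0.03 for untrained KO against WT (-0.42 to 0.36, adjusted p = 0.963), 0.23 for training within KO (-0.21 to 0.66, adjusted p = 0.528) and 0.20 for trained KO against untrained WT (-0.08 to 0.47, adjusted p = 0.279).

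Htr1f encodes the 5-HT1F receptor, the target of the lasmiditan class of migraine drugs. It lay between 0.965 and 1.96 FPKM (median 1.33) in untrained WT, between 0.577 and 1.65 FPKM (median 1.23) in untrained KO and between 0.929 and 1.79 FPKM (median 1.19) in trained KO. The 3 highest WT libraries, at 1.76 to 1.96 FPKM, were females, and the lowest library of all was an untrained female labelled KO. The differences were -0.16 (-0.39 to 0.07, adjusted p = 0.595) for untrained KO against WT, 0.04 (-0.18 to 0.27, adjusted p = 0.840) for training and -0.12 (-0.28 to 0.05, adjusted p = 0.297) for trained KO against untrained WT.

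Htr5a encodes the 5-HT5A receptor, another Gi-coupled member, and it varied least. Levels ran from 5.50 to 6.68 FPKM (median 5.84) in untrained WT, from 4.06 to 6.91 FPKM (median 6.20) in untrained KO and from 5.14 to 6.03 FPKM (median 5.50) in trained KO. The low value of 4.06 FPKM was again the untrained male labelled KO replicate 3, and the other 23 libraries lay between 5.14 and 6.91 FPKM, with a coefficient of variation of 7.93%. In those 23 its residual SD was 0.08, wider than that of only 13.5% of tested genes. The intervals were also the narrowest: -0.17 to 0.15 for untrained KO against WT (adjusted p = 0.980), -0.24 to 0.07 for training (adjusted p = 0.514) and -0.19 to 0.01 for trained KO against WT (adjusted p = 0.190).

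The Gq-coupled receptors differed between the untrained arms with opposite signs, neither past the threshold. Htr2a encodes the 5-HT2A receptor, the main target of serotonergic hallucinogens. It ran from 8.02 to 11.1 FPKM (median 9.49) in untrained WT, from 4.60 to 10.3 FPKM (median 7.48) in untrained KO and from 5.68 to 10.8 FPKM (median 8.15) in trained KO. Only 1 of 8 untrained KO libraries, a female at 10.3 FPKM, lay above the WT mean of 9.50 FPKM, and 2 of 8 trained KO libraries did. Untrained KO differed from WT by -0.35 (-0.59 to -0.10, adjusted p = 0.196), and trained KO from WT by -0.22 (-0.41 to -0.03, adjusted p = 0.0825). Training within KO gave 0.13 (-0.16 to 0.42, adjusted p = 0.602). Without the untrained male labelled KO replicate 3 the untrained difference was also -0.35 (adjusted p = 0.134). Leaving out the trained male labelled KO replicate 2, at 10.8 FPKM, moved the trained KO value against WT to -0.27 with an adjusted p of 0.0294.

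Htr2c encodes the 5-HT2C receptor, whose transcript is edited by ADAR enzymes and which is abundant in the choroid plexus. It ran from 3.96 to 7.84 FPKM (median 5.50) in untrained WT, from 4.89 to 31.1 FPKM (median 8.80) in untrained KO and from 4.08 to 9.64 FPKM (median 6.81) in trained KO. In untrained KO 7 of 8 libraries exceeded the WT mean of 5.50 FPKM, and 0 of 8 trained libraries exceeded the untrained KO mean of 11.5 FPKM, which the library at 31.1 FPKM raised. The difference was 0.76 for untrained KO against WT (0.21 to 1.30, adjusted p = 0.211) and 0.52 without that library (adjusted p = 0.0919). Training within KO gave -0.53 (-1.11 to 0.05, adjusted p = 0.252), and -0.28 without it (adjusted p = 0.329). Trained KO minus untrained WT gave 0.23 (0.03 to 0.42, adjusted p = 0.0872). That value passed the threshold after a correction for GC content and length (0.27, adjusted p = 0.0354), without the trained male labelled KO replicate 2 (0.28, adjusted p = 0.0346) and without the untrained male labelled WT replicate 3 (0.27, adjusted p = 0.0478). With a term for animal number it was 0.04 (adjusted p = 0.967), a fit that rests on the untrained male labelled WT replicate 1 at 5.11 FPKM. The library with the highest sum of 8 choroid plexus markers, a trained female labelled KO with 87.0 FPKM, had 7.76 FPKM of Htr2c. Ttr made up 81.9 FPKM of that sum. The library at 31.1 FPKM of Htr2c had 17.3 FPKM of these markers, of which Ttr made up 2.25 FPKM. In it Clic6 (8.74 FPKM) and Otx2 (2.02 FPKM) lay above the 22 libraries that did not stand apart (at most 0.805 and 0.168 FPKM). Prlr and Kl lay above them too, while Ttr, Folr1, Kcnj13 and Aqp1 lay within their range. The part of choroid plexus in the Htr2c values was not tested.

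Set against each other within a library, Htr2a exceeded Htr2c in 8 of 8 untrained WT, 3 of 8 untrained KO and 6 of 8 trained KO libraries. The ratio of Htr2a to Htr2c ran from 1.30 to 2.58 (median 1.62) in untrained WT, from 0.234 to 2.11 (median 0.809) in untrained KO and from 0.729 to 2.66 (median 1.15) in trained KO. This ratio was chosen after the values were seen and was not tested.

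**Figure D3:**
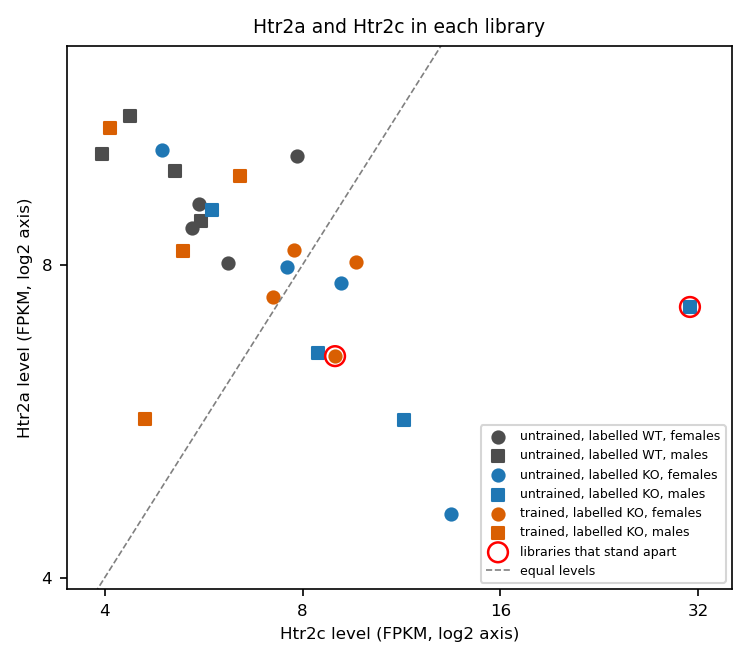
Htr2a against Htr2c level (FPKM, both axes log2) in each of 24 libraries, coloured by arm, with females as circles, males as squares, a dashed line of equal levels and the libraries that stand apart ringed in red. All 8 untrained libraries labelled WT lie above the line, and 5 of 8 untrained libraries labelled KO lie below it.

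Htr3a encodes the subunit that forms the 5-HT3 channel, the ionotropic serotonin receptor. It ran from 3.40 to 6.55 FPKM (median 4.84) in untrained WT, from 2.75 to 6.19 FPKM (median 5.24) in untrained KO and from 4.49 to 5.97 FPKM (median 5.13) in trained KO. The trained arm was the tightest, with a coefficient of variation of 9.63% against 23.8% in untrained WT and 22.6% in untrained KO. The untrained male labelled KO replicate 3, at 2.75 FPKM, widened the latter, and the other 7 of that arm averaged 5.27 FPKM ± 0.735 (SD). The 3 lowest WT libraries, between 3.40 and 3.94 FPKM, were females. Differences were 0.04 (-0.25 to 0.32, adjusted p = 0.933) for untrained KO against WT, 0.08 (-0.15 to 0.31, adjusted p = 0.699) for training and 0.12 (-0.07 to 0.30, adjusted p = 0.345) for trained KO against WT. A list of 12 markers of the interneuron class that carries this channel (among them Vip, Cck, Npy, Reln and Ndnf) was summed. The sum was 370 to 474 FPKM in untrained WT, 257 to 497 FPKM in untrained KO and 406 to 592 FPKM in trained KO. In the 22 libraries that did not stand apart, Cck and Npy weighed most in it. The lowest sum, 257 FPKM, was that of the library with the lowest Htr3a, the untrained male labelled KO replicate 3, but its markers did not go 1 way. In it Cck (58.2 FPKM), Npy (67.1 FPKM) and Vip (11.8 FPKM) lay below the range of the 22 libraries that did not stand apart (148 to 276, 112 to 203 and 29.6 to 40.6 FPKM), while Sncg (15.1 FPKM) and Ndnf (8.10 FPKM) lay above it (at most 3.77 and 2.56 FPKM), as did Calb2 (at most 10.6 FPKM in the 22). The part of these cells in the Htr3a values was not tested.

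Of the Gs-coupled receptors, Htr7 encodes the 5-HT7 receptor, which raises cyclic AMP. It ran from 2.52 to 4.22 FPKM (median 3.21) in untrained WT, from 2.91 to 5.78 FPKM (median 4.78) in untrained KO and from 3.08 to 4.48 FPKM (median 3.57) in trained KO. In untrained KO 7 of 8 libraries lay above the WT mean of 3.28 FPKM, and 0 of 8 trained libraries lay above the untrained KO mean of 4.49 FPKM. The untrained male labelled KO replicate 3, at 5.78 FPKM, raised that mean. The other 7 averaged 4.30 FPKM, and the trained female labelled KO replicate 2 lay above this at 4.48 FPKM. The difference of 0.36 between untrained KO and WT (0.13 to 0.58, adjusted p = 0.133) had the smallest p among the receptors, and it was 0.31 without the untrained male labelled KO replicate 3 (adjusted p = 0.112) and 0.41 among animals numbered under 1000 (adjusted p = 0.157). Training within KO gave -0.23 (-0.43 to -0.02, adjusted p = 0.159), and the 6 males numbered over 1000 gave -0.22 (adjusted p = 0.534). Leaving out the untrained female labelled KO replicate 2, the lowest of its arm at 2.91 FPKM, moved both past the threshold, to 0.42 (adjusted p = 0.0331) and -0.29 (adjusted p = 0.0433). Trained KO minus untrained WT gave 0.13 (-0.04 to 0.30, adjusted p = 0.254), and with a term for animal number this was -0.15. The latter fit rests on the untrained male labelled WT replicate 1, at 3.97 FPKM.

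Htr4, on chromosome 18, encodes the 5-HT4 receptor and was the least abundant. It ran from 0.324 to 0.639 FPKM (median 0.467) in untrained WT, from 0.336 to 2.51 FPKM (median 0.528) in untrained KO and from 0.189 to 1.91 FPKM (median 0.468) in trained KO. Each KO arm held 1 library above 1 FPKM, namely the 2 that stood apart in markers of neighbouring regions. The difference was 0.19 for untrained KO against WT (exact permutation test, 2-sided, unadjusted p = 0.320), -0.08 for training (p = 0.643 by the same exact test) and 0.11 for trained KO against WT (p = 0.604 by the same exact test). Without the untrained male labelled KO replicate 3 the first became 0.04, and without the trained female labelled KO replicate 2 the last became -0.02.

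Between males and females no receptor differed by more than 0.21 on the log2 scale. The smallest adjusted p was that of Htr1f, which averaged 1.41 FPKM ± 0.408 in 12 females and 1.16 FPKM ± 0.224 in 12 males, a difference of -0.15 (-0.32 to 0.02, adjusted p = 0.189). It passed the threshold at -0.20 (adjusted p = 0.0389) when the untrained female labelled KO replicate 4, the lowest library at 0.577 FPKM, was left out. It was 0.01 after the correction for GC content and length. Htr2c, with -0.17 in the full set (-0.57 to 0.23, adjusted p = 0.535), passed at -0.33 (adjusted p = 0.0411) without the untrained male labelled KO replicate 3 and was -0.04 after that correction. The widest difference was that of Htr1b, at 0.21 for males minus females (-0.11 to 0.52, adjusted p = 0.318). Htr4 averaged 0.626 FPKM ± 0.433 in females and 0.637 FPKM ± 0.607 in males (2-sided permutation test, p = 0.898). Whether the arm differences themselves differed by sex was tested as an interaction by limma. It called 0 of 8 receptors in each of the 3 comparisons, with 0, 2 and 0 of 8 at an unadjusted p under 0.05 for genotype, training and both. Over all 12572 genes the interaction called 0, 1 and 22.

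The receptors differed in how far 1 library set them. In the untrained male labelled KO replicate 3, Htr2c at 31.1 FPKM was 3.58 times the mean of the other 7 libraries of its arm (8.68 FPKM ± 3.01), Htr4 at 2.51 FPKM was 4.81 times theirs, Htr1b at 8.83 FPKM 2.55 times and Htr1a at 9.86 FPKM 2.11 times. Htr3a at 2.75 FPKM was 0.522 times and Htr5a at 4.06 FPKM 0.650 times their mean. Htr2a, at 7.29 FPKM, was 0.984 times it. In this library Tbr1, a gene of cortical projection neurons, was at 12.6 FPKM against 36.9 to 46.2 FPKM in the 22 that did not stand apart, and Zic1, a septal gene, was at 52.0 FPKM against 1.46 to 2.70 FPKM. The part of these cells in the receptor values was not tested.

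Htr1b also ran with Drd2, the dopamine receptor of indirect-pathway striatal neurons. The 6 libraries with most Drd2 (7.74 to 29.9 FPKM) came from each arm: 3 untrained WT, 2 untrained KO and 1 trained KO. They had 3.51 to 8.83 FPKM of Htr1b, and the other 18, with Drd2 of 0.327 to 3.85 FPKM, had 1.90 to 6.22 FPKM. Htr1d, a further Gi-coupled receptor outside the 9, was at 0.317 to 1.16 FPKM in the 6 and at 0 to 0.214 FPKM in the 18. It lay under the filter, with a median of 9 reads per library (0 to 107). This split by Drd2 was not a planned comparison, and how many of all genes separate under it was not counted. Striatal markers summed to 24.5 to 120 FPKM in untrained WT, 17.8 to 260 FPKM in untrained KO and 17.8 to 78.7 FPKM in trained KO. Their part in the Htr1b values was not tested.

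**Figure D4:**
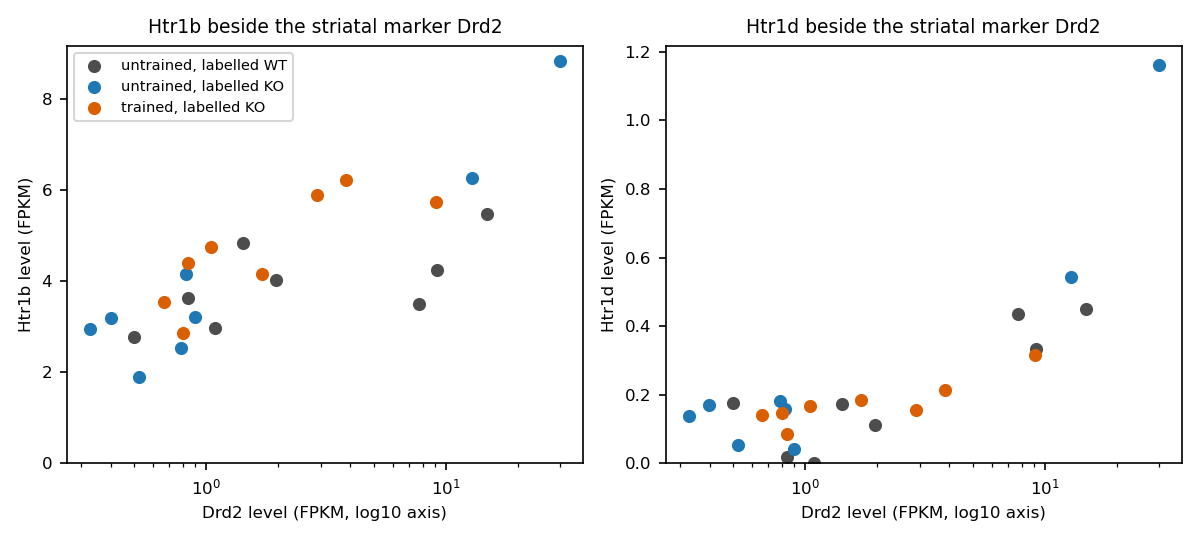
Htr1b (left) and Htr1d (right) level (FPKM, linear axis from 0) against the striatal marker Drd2 (FPKM, log10 axis) in each of 24 libraries, coloured by arm. The 6 libraries with most Drd2 hold 0.317 to 1.16 FPKM of Htr1d, and the other 18 hold 0 to 0.214 FPKM.

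Across libraries the receptors fell into pairs that moved together or apart after arm and sex were taken out. Pearson's r of the residuals is given as a description, since the libraries share arms and differ in depth and in regional markers. Without the untrained male labelled KO replicate 3, over 23 libraries, Htr2a moved with Htr1f (r = 0.66) and Htr1b (r = 0.59), Htr1b moved with Htr1f (r = 0.64), and Htr2a moved against Htr2c (r = -0.62). Htr2c moved with Htr7 (r = 0.56). Htr3a and Htr5a gave r = 0.57, and r = 0.80 over all 24 libraries. That library alone set some pairs: Htr1a and Htr2c gave r = 0.64 over 24 libraries and r = 0.02 over 23.

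**Figure D5:**
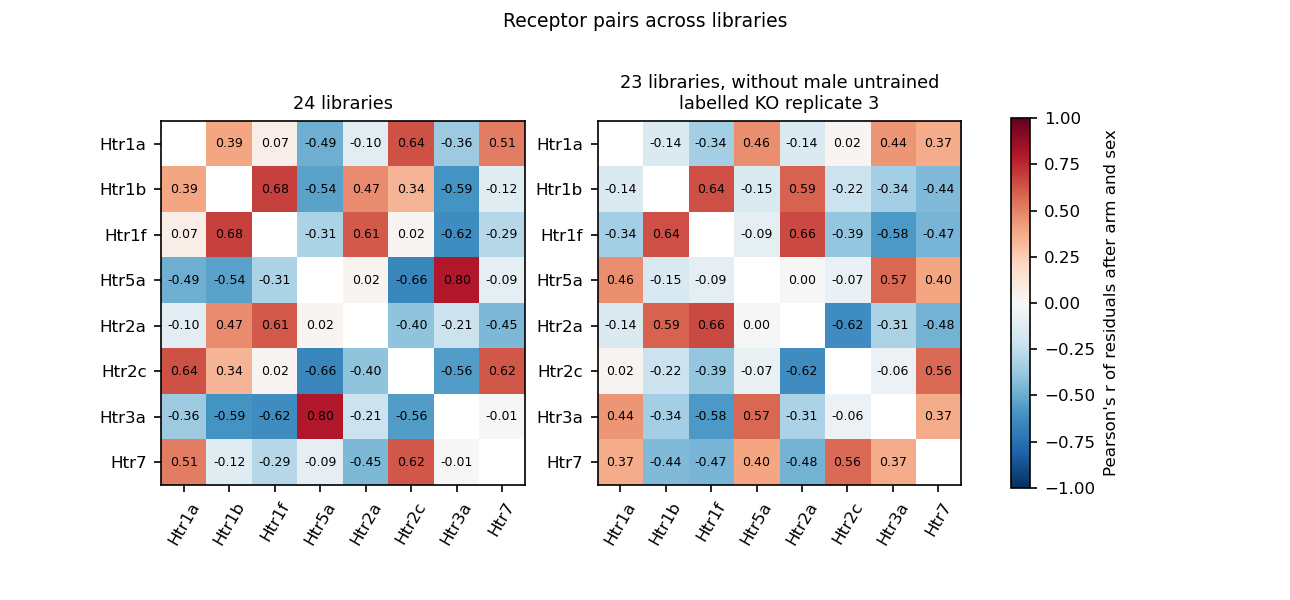
Pearson's r between receptor genes of log2(FPKM + 1) residuals after arm and sex, over 24 libraries (left) and over 23 without the untrained male labelled KO replicate 3 (right), from blue (-1) to red (1). The pair Htr2a and Htr2c goes from -0.40 to -0.62, and the pair Htr1a and Htr2c from 0.64 to 0.02.

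For each receptor the 2 genes of most similar residual pattern over 24 libraries were named, with the value over 23 libraries in the same clause. Htr2a was nearest to Neto1 (r = 0.89, then 0.92), an auxiliary subunit of kainate receptors, and to Lrp8 (0.85, then 0.85), a reelin receptor. Htr2c was nearest to Sparc (0.88, then 0.71) and Ntn1 (0.87, then 0.63). Htr1b was nearest to Bcr (0.90, then 0.84) and Tmem212 (0.89, then 0.84), and Htr1a to Slc24a3 (0.88, then 0.67) and Grin2d (0.87, then 0.67). Htr1f was nearest to Kantr (0.86, then 0.84) and Osbpl8 (0.83, then 0.82), and Htr7 to Fam19a2 (0.79, then 0.75) and Zfp964 (0.77, then 0.73). Htr3a was nearest to Dync1i1 (0.86, then 0.73) and Zfand2b (0.85, then 0.76), and Htr5a to C77080 (0.89, then 0.63) and Acsl5 (0.89, then 0.63). Ranked over the 23 libraries instead, a choice made after the values were seen, Htr2c was nearest to Slc17a6 (0.91, and 0.39 over 24) and Tshz2 (0.90, and 0.02 over 24), and for each other receptor at least 1 of the 2 nearest genes was another. The values of Htr1a, Htr2c and Htr5a dropped most without the untrained male labelled KO replicate 3, while those of Htr2a and Htr1f moved by 0.03 or less. Over the 24 libraries Slc17a6 ran from 3.30 to 11.5 FPKM and Tshz2 from 7.10 to 52.8 FPKM. Both were highest in the untrained female labelled KO replicate 4. That female also had the most Htr2c of the 23 (13.4 FPKM) and the least Htr2a of all 24 (4.60 FPKM). Whether the region sampled differed there was not tested.

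The genes around the receptors were read from 6 lists of 99 symbols in all: other serotonin receptors, serotonin synthesis and breakdown, G proteins, enzymes and channels downstream, receptor partners, and regulators of the receptor genes. Adrbk1, Adrbk2 and Slc9a3r1 were also listed under other names (Grk2, Grk3 and Nherf1). Of the 99 symbols 90 were matched in the table and 79 passed the filter. Between untrained KO and WT 0 of 79 passed by limma (7 at an unadjusted p under 0.05, and 0 by limma-voom). Without the untrained male labelled KO replicate 3 the count was 5, while that over all 12572 genes went from 179 to 340: Adcy1 (0.18, adjusted p = 0.0116), Pde4d (0.22, adjusted p = 0.00859) and Pde4a (0.15, adjusted p = 0.0441) were higher in KO, and Gnai1 (-0.20, adjusted p = 0.0172) and Adar (-0.15, adjusted p = 0.0442), which edits Htr2c transcripts, were lower. These 5 were named after their values were seen. The median signed difference over the 79 genes was -0.0036 for genotype, -0.013 for training, 0.0050 for both and -0.0028 for sex, beside -0.0014, 0.0065, 0.0032 and 0.011 over all genes tested.

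Between trained and untrained KO, 3 of 79 listed genes passed (3.80%, beside 5.67% of all genes). Egr3, an immediate-early factor that acts on Htr2a, rose from 43.4 FPKM ± 11.8 to 65.5 FPKM ± 6.20 (SD, n = 8 each; 0.63, adjusted p = 0.0189 by limma). Adcy7, an adenylyl cyclase, fell from 2.24 FPKM ± 0.267 to 1.62 FPKM ± 0.259 (-0.31, adjusted p = 0.0178). Pde4b, a phosphodiesterase that breaks down cyclic AMP, fell from 24.9 FPKM ± 2.28 to 21.4 FPKM ± 1.58 (-0.21, adjusted p = 0.0456). With a term for animal number 0 of the 3 passed, as did 0 of all 12572 genes (713 without it; 1306 at an unadjusted p under 0.05 with it), and Egr3 was then 0.25 (adjusted p = 0.719).

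Between trained KO and untrained WT, 18 of 79 listed genes passed, 8 higher and 10 lower (22.8%, beside 24.5% of all genes). Htr6, a Gs-coupled receptor outside the 9 members, fell from 1.73 FPKM ± 0.295 to 1.17 FPKM ± 0.358 (-0.34, adjusted p = 0.0176 by limma), with ranges of 1.24 to 2.03 and 0.529 to 1.79 FPKM that overlapped. In serotonin metabolism, 2 of 6 tested genes passed: Maoa, which breaks down serotonin, fell from 11.0 FPKM ± 1.42 to 8.88 FPKM ± 0.510 (-0.28, adjusted p = 0.00302), and Ddc, which makes it from its precursor, rose from 3.19 FPKM ± 0.904 to 4.11 FPKM ± 0.678 (0.31, adjusted p = 0.0281). The ranges of Maoa in the arms did not overlap, as for 3.11% of all genes. Among G proteins, 2 of 11 passed, and Gnai1 (-0.18, adjusted p = 0.0156) and Gna13 (-0.19, adjusted p = 0.0109) both fell. Downstream, 5 of 26 passed: Prkcb (-0.21), Plcb1 (-0.21), a phospholipase of Gq receptors, and Pde4b (-0.26) fell, while Pde4a (0.14) and Pde4d (0.13) rose. Of the partners 6 of 24 passed, with Rgs2 (0.20), Rgs19 (0.25), Grk6 (0.15) and Anxa2 (0.34) higher and Arrb1 (-0.17) and Ric3 (-0.14), a chaperone of ligand-gated channels, lower. Of the regulators 2 of 11 passed, Egr3 (0.64) higher and Cc2d1b (-0.28), a repressor of Htr1a, lower. With a term for animal number 0 of the 18 passed, where 22 of all 12572 genes did (3074 without it). After the correction for GC content and length 15 of the 18 passed, and 3516 of all genes.

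Males and females differed in 21 of 79 listed genes, 13 higher and 8 lower in males (26.6%, beside 28.6% of all genes). The G proteins were the list with most calls, 7 of 11, with Gnas (0.25, adjusted p = 0.000209), the Gs protein, and Gnai2 (0.17, adjusted p = 0.00424) higher in males and Gnai3 (-0.16, adjusted p = 0.0145) lower. Dlg4, a scaffold that binds Htr2a and Htr2c, was higher in males by 0.16 (adjusted p = 0.00104), and the regulators Deaf1 (0.23, adjusted p = 0.000927) and Nr3c1 (-0.26, adjusted p = 0.00157) went opposite ways. Maoa, an X-linked gene, was lower in males by -0.20 (adjusted p = 0.00630) and Ddc higher by 0.28 (adjusted p = 0.0173). After the correction for GC content and length 3 of the 20 genes named by rule for this comparison kept an adjusted p under 0.05, namely Gnas (0.12), Dlg4 (0.25) and Deaf1 (0.12). The count over all genes went from 3595 to 642 with the same correction.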

How the data were processed

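Poly(A) RNA libraries of 24 mice were analysed in 3 arms of 8, grouped by the labels. The authors deposited FPKM values, whole-tissue and scaled by gene length and library size, for 15232 genes. The submitters' processing notes name FastQC 0.11.7, Trimmomatic 0.38, STAR 2.5.3a, featureCounts of Subread 1.6.3 and the build mm10, with no order or settings. Whether reads were counted by strand is not given in the sources used here. The animal number in each header matched 1 sample, and 24 symbols read as dates.

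FPKM steps of low genes gave the size of 1 read in each library, from which whole reads were recovered, 12343773 to 27233267 per library. Of all values 99.97% lay within 0.01 of a whole read. The search for whole reads itself used such a tolerance, so this share is no independent test of them. Precision covers counting error only.

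Each comparison was fitted on log2(FPKM + 1) with limma 3.58.1 in R 4.3.3 (trend=TRUE), with sex as a covariate (arm for the sex comparison), over the 12572 genes with a mean of at least 1 FPKM, Benjamini-Hochberg adjusted, threshold 0.05. On this scale low genes show less than their full change. The fit and the read recovery were tested on simulated data. Htr4 was compared by permutation, exact between arms and with 100000 resamples between sexes.

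Alternatives were a pseudocount of 0.1, no filter, median-ratio scaling, all 24 libraries in 1 fit, no sex covariate, a term for animal numbers over 1000, the replicate number as a block, GC content and length corrected in 20 bins (99.4% of tested genes had a value), limma-voom on recovered reads, and each library left out. Fits within animals numbered under or over 1000, and without both libraries that stand apart, were chosen after seeing the data. Another scaling moved the median of all genes by at most 0.01. The rule named all members, Thbs1 and Thbs2, up to 6 called genes of each pathway list and comparison by smallest p, and for each receptor the 2 most similar genes. The members and lists were chosen with earlier results of these data known. Values from genes that overlap or lie antisense to another are uncertain without strand. P-values measure the spread between animals. Some genes of the lists are counted but not reported by name here.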

Additional observations from a re-analysis of the deposited data

Results flagged for a closer look

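In each arm of 8 libraries, the gap between the highest or lowest library and its nearest neighbour was set against the whole range of the arm. The critical value of 0.526 flags by chance about 1 in 20 independent groups of normal values (1.35 of 27). The 27 groups here hold FPKM values and share libraries across genes, so that rate is only a guide. Of them 5 had a gap share above the critical value. The untrained male labelled KO replicate 3 accounted for 4: Htr2c at 31.1 FPKM against 4.89 to 13.4 FPKM in the other 7 libraries, Htr1a at 9.86 FPKM against 4.06 to 5.42 FPKM, Htr4 at 2.51 FPKM against 0.336 to 0.883 FPKM, and, on the low side, Htr5a at 4.06 FPKM against 5.68 to 6.91 FPKM. The trained female labelled KO replicate 2 accounted for the other, Htr4 at 1.91 FPKM against 0.189 to 0.637 FPKM. Both libraries also stood apart in markers of neighbouring brain regions, and the part of those regions in the receptor values was not tested.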

How the results depend on the processing

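Of 316 receptor values under alternatives that left out no single library, 1 passed the threshold and 14 turned sign. Of 648 values with 1 library left out, 7 passed and 29 turned sign, and all 7 are given above. For the count of receptors called, 0 in each comparison, the correction for GC content and length gave 1 for trained KO against untrained WT, and leaving out each library gave 0 to 1 for genotype, 0 to 1 for training, 0 to 2 for both and 0 to 1 for sex. The count of listed pathway genes was 0 for genotype, 3 for training, 18 for both and 21 for sex. With each library left out it ran from 0 to 5 (5 without the untrained male labelled KO replicate 3), from 2 to 6 (6 without the untrained male labelled KO replicate 2 or the trained male labelled KO replicate 4), from 14 to 21 and from 16 to 26. It was 1 for genotype and 4 for sex after the correction for GC content and length (201 and 642 calls over all genes, 179 and 3595 as reported). For training it was 7 with all 24 libraries in 1 fit, 5 with limma-voom, 0 with a term for animal number and 0 among males numbered over 1000, where all genes gave 1238, 757, 0 and 0 calls (713 in the fit as reported). For both it was 0 with the term for animal number (22 of all genes, 3074 as reported), a fit that rests on few untrained animals numbered over 1000. The cause was not tested.

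With the replicate number as a block, which left 7 pairs where trained libraries entered, the pathway count was 0 for training and 10 for both (29 and 1614 calls over all genes), Htr1f turned to -0.032 for training, and 0 of 8 receptors passed. Same-numbered libraries are different animals, and their deviations correlated by 0.02 for genotype, -0.07 for training and -0.10 for both on average. Single pairs ran from -0.29 to 0.36 for genotype. With only 7 or 8 pairs these averages cannot decide whether the numbers pair the samples, and the fits as reported used no pairing.

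Some signs turned with no single library left out. limma-voom gave 0.037 for Htr1b and -0.011 for Htr3a (genotype). The term for animal number gave 0.037 for Htr1a and -0.026 for Htr3a (training), and -0.032 for Htr1a, 0.075 for Htr1f and -0.15 for Htr7 (both). These fits rest on the few untrained animals numbered over 1000. Males numbered over 1000 gave -0.024 for Htr1b and -0.020 for Htr1f (training). Leaving out both libraries that stand apart gave -0.034 for Htr3a (training) and 0.013 for Htr5a (sex). The correction for GC content and length gave, for sex, 0.0057 for Htr1f, 0.048 for Htr5a, -0.00093 for Gna11, -0.023 for Grk6, -0.019 for Arrb2, 0.0021 for Sp4 and -0.0019 for Cc2d1a. With 1 library left out, values that crossed 0 ran, for genotype, from -0.16 to 0.063 for Htr1b, from -0.010 to 0.15 for Htr3a and from -0.038 to 0.061 for Htr5a. For training they ran from -0.029 to 0.086 for Htr1f, from -0.020 to 0.12 for Htr3a and from -0.21 to 0.069 for Htr4, and for both from -0.019 to 0.17 for Htr4. For sex they ran from -0.048 to 0.017 for Htr5a, from -0.028 to 0.049 for Htr7 and from -0.12 to 0.064 for Htr4.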
